A study of Homo sapiens with 6 samples.

Results

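The Notch pathway genes described here are the 4 receptors NOTCH1, NOTCH2, NOTCH3 and NOTCH4, the 4 ligands JAG1, JAG2, DLL1 and DLL4, and the target repressors HES1 and HEY1. These 10 genes were taken by their symbols from a table of 46427 genes. RNA was sequenced from Hs578T, a triple-negative breast cancer cell line, in 3 libraries of cells that stably carry a control shRNA (shCTRL) and 3 libraries of cells that stably carry an shRNA against CCN3 (shCCN3). CCN3, also called NOV, is a secreted matricellular protein. All 6 libraries came from cells transduced with a pSUPER retrovirus and selected with puromycin, grown in DMEM with fetal bovine serum. Each group is a single cell line with 1 shRNA sequence, so that an effect of CCN3 loss and any other difference between both lines cannot be told apart. The submitters describe the replicates as independent and biological, without saying what separated them, so p-values measure only the spread between these samples.

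Notch receptors are transmembrane proteins that a ligand on a neighbouring cell, of the Jagged or Delta-like type, pulls on to expose a cleavage site. After cuts by an ADAM protease and by gamma-secretase, the intracellular part of the receptor moves to the nucleus, where it joins the DNA-binding protein RBPJ and a Mastermind coactivator. Without Notch, RBPJ recruits corepressors to the same genes. The HES and HEY genes, which encode basic helix-loop-helix repressors, are the best known direct targets. In breast tissue the pathway takes part in stem and luminal cell fate, JAG1 is often high in triple-negative tumours, and CCN3 is known to bind the extracellular part of NOTCH1.

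NOTCH3 fell and the ligand JAG1 rose in shCCN3 cells, and both target repressors, HES1 and HEY1, rose as well. NOTCH1 and NOTCH2 did not pass the test, and the other 4 genes had at most 47 counts in any library. Outside these 10 genes, RBPJ mRNA fell while HES4 and HEY2, further members of the repressor families, rose.

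The promoters of HES1, HES4 and HEY2 are shown first, because these repressors rose and their promoters hold letters through which RBPJ is known to bind. HEY1 is not shown, since the RefSeq table used here has no entry for it. The sequences are the 250 bases before the RefSeq start of each gene on GRCh38.p14, read 5′ to 3′ on the strand of the gene, and capitals mark TGGGAA, the core of the RBPJ motif, or its reverse complement. HES1 lies on the plus strand (chr3:194135898-194136147), HES4 on the minus strand (chr1:1000098-1000347) and HEY2 on the plus strand (chr6:125749382-125749631).
HES1: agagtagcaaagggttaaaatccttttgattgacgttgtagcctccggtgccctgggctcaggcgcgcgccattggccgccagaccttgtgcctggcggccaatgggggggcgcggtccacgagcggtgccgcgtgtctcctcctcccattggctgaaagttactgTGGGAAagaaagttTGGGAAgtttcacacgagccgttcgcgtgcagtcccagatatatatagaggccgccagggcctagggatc
HES4: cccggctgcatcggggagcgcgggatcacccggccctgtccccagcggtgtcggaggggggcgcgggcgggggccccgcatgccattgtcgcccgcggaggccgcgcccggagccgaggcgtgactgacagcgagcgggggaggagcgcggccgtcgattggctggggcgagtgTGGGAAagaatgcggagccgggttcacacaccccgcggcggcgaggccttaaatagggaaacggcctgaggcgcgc
HEY2: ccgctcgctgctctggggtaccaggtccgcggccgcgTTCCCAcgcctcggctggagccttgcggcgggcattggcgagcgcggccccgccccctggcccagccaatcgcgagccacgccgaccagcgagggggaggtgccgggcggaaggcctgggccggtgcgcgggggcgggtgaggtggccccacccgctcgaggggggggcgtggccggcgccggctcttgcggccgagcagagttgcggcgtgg
The HES1 promoter held TGGGAA at 2 positions, both on the strand of the gene, from 84 to 79 and from 70 to 65 bases before the start. HES4 held 1 match on the strand of the gene, and HEY2 held 1 on the opposite strand. Of the other 5 HES and HEY genes looked up, HES5 and HEYL, both at 0 counts in every library, held TGGGAA 2 times each, and HES2, HES6 and HES7 did not hold it. Of 35116 RefSeq promoters of this length, 20.8% held TGGGAA at least once on either strand and 2.9% held it 2 times or more. The HES1 promoter also held CACNAG, the N box to which HES1 itself is known to bind, 3 times, while 32.0% of all promoters held it at least once and 6.32% held it 2 times or more. No match of the one motif overlapped a match of the other there. Promoters were listed for 8 of the 10 Notch genes, all but DLL1 and HEY1, and HES1 was the one among these 8 with TGGGAA. NOTCH3 and NOTCH4 held CACNAG 1 time each. A match is a stretch of letters, and binding was not measured.

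Depth was high and similar between libraries, with 56159110 to 68393177 counts. Expression is given in CPM, counts per 1000000 after TMM scaling of the library totals, and 3 counts in a library, the floor used here, correspond to 0.0435 to 0.0540 CPM. This floor covers counting error only. In shCTRL libraries CCN3 mRNA averaged 101 ± 2.43 CPM against 47.0 ± 0.469 CPM in shCCN3 libraries (SD, n = 3 each), and the log2 fold change was -1.10. Mesenchymal VIM was at 7778 CPM in shCTRL cells, while CDH1, EPCAM and ESR1 had at most 10 counts in any library. ERBB2 was at 77.9 CPM and PGR at 2.86 CPM in shCTRL cells. Among 5 endothelial markers, CDH5 was at 0 counts in all 6 libraries, TEK and VWF had at most 8 counts, and PECAM1 was at 3.57 and 3.43 CPM in shCTRL and shCCN3 cells. PECAM1 and KDR, the 2 tested, did not pass, with KDR at 0.926 and 0.532 CPM (edgeR, adjusted p = 0.0609). CD68, a marker of macrophages that other cells also express, fell from 102 to 58.5 CPM, while PTPRC, which marks all leukocytes, had at most 13 counts. Among the epithelial keratins KRT8 fell and KRT18 rose, and mesenchymal CDH2 rose from 89.0 to 162 CPM. The other mesenchymal markers, VIM, FN1 and ZEB1, had log2 fold changes of -0.14, 0.18 and 0.09. None of these passed (edgeR, adjusted p = 0.0961, 0.233 and 0.627). VIM was at 7064 CPM in shCCN3 cells, with every shCCN3 library below every shCTRL library. The part of these markers in the results was not tested. Library 2 of shCCN3 stood apart by transcript length. Relative to the other libraries of its group, its genes with over 6 kb of exons had a median log2 deviation of -0.13 and those under 3 kb one of 0.15. In the other 5 libraries these medians lay between -0.10 and 0.09.

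Of the 10 genes, 8 had enough counts to be tested under edgeR's filter. The quasi-likelihood test of edgeR called 4 of these 8 (Benjamini-Hochberg adjusted p under 0.05 among 17419 genes), 3 of them higher and 1 lower in shCCN3 cells. Over all genes tested, 33.4% passed this threshold, 16.2% higher and 17.3% lower. The libraries of both groups did not overlap for 6 of the 8 genes, against 46.3% of all genes tested. Of these 6, NOTCH4 and DLL1 had at most 47 counts in any library and were not called. The 10 genes were chosen with earlier results of these data known, so these shares are a description only. The median log2 fold change was 0.23 over the 8 genes and 0.01 over all genes. In bulk RNA, fewer cells that express a gene and less RNA per cell cannot be told apart. With 3 libraries per group, an exact permutation test of single values cannot give a p below 0.1.

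**Figure D1:**
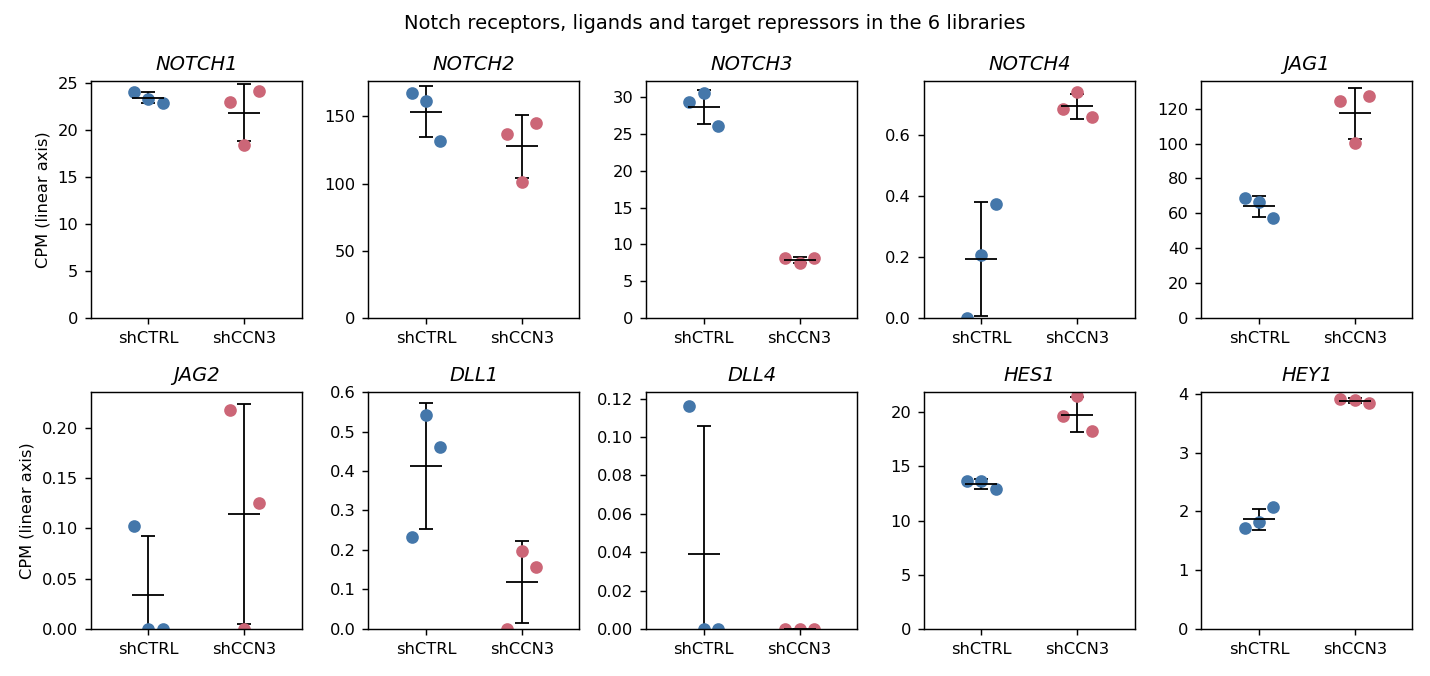
Expression of each gene in CPM (linear axes from 0, a separate scale per gene) in the 3 shCTRL (blue) and 3 shCCN3 (red) libraries, with points for libraries and black bars for the mean and SD, whose lower end is hidden where it falls below 0. NOTCH3 lies between 26.0 and 30.6 CPM in shCTRL cells and between 7.47 and 8.15 CPM in shCCN3 cells, while NOTCH1 and NOTCH2 overlap.

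Among the receptors, NOTCH3, which is best known from vascular smooth muscle and is also expressed in breast cancers, was the one that passed the test. The libraries of shCTRL cells held 29.3, 30.6 and 26.0 CPM of NOTCH3, and those of shCCN3 cells held 8.11, 7.47 and 8.15 CPM. Every shCCN3 library was therefore far below every shCTRL library. The mean fell from 28.6 ± 2.34 to 7.91 ± 0.381 CPM (SD, n = 3 each), 3.62-fold by the fit. Its log2 fold change was -1.86 (standard error 0.088, 95% interval -2.05 to -1.66), with an adjusted p of 9.64e-07 from edgeR's quasi-likelihood test. Of all genes tested, 1.41% had a lower log2 fold change. NOTCH3 lies on the minus strand of chromosome 19 of GRCh38 (15159038 to 15200981), and the 24 nearest tested genes had a median log2 fold change of 0.01. None of the 24 was as low as NOTCH3.

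NOTCH1, the most widely expressed receptor of the family in development, had 24.1, 23.3 and 23.0 CPM in shCTRL libraries. In shCCN3 libraries it had 23.0, 18.5 and 24.2 CPM, so that the groups overlapped and library 2 of shCCN3 was the lowest. Its log2 fold change was -0.10 (95% interval -0.33 to 0.13), with an adjusted p of 0.498 from edgeR's quasi-likelihood test. Without library 2 of shCCN3 the log2 fold change was 0.01. NOTCH1 lies on chromosome 9 (136494433 to 136545786, minus strand), and its 24 nearest tested genes had a median of -0.14, with 14 of them below NOTCH1.

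NOTCH2 had the highest level of the 4 receptors. It was at 167, 162 and 132 CPM in shCTRL libraries and at 137, 101 and 145 CPM in shCCN3 libraries. The ranges overlapped, and library 2 of shCCN3 was again the lowest. The log2 fold change of -0.27 (95% interval -0.57 to 0.04) did not pass (edgeR, adjusted p = 0.171), and it was -0.12 without library 2 of shCCN3. On chromosome 1 (119911553 to 120069626, minus strand) the 24 genes nearest to NOTCH2 had a median of -0.21, and 12 of them were below NOTCH2. NOTCH2 has near-identical partial copies in the NOTCH2NL genes, and reads may be divided between them by the counting. NOTCH2NLA, NOTCH2NLB, NOTCH2NLC and NOTCH2NLR together held 15.7% to 22.5% of the summed counts of NOTCH2 and its copies per library. NOTCH2NLR passed the test with a log2 fold change of -0.51 (edgeR, adjusted p = 0.0219) and is also 1 of the 24 nearest genes. NOTCH2NLA, NOTCH2NLB and NOTCH2NLC, at -0.25, -0.10 and -0.24, did not pass. When the counts of the copies were added to NOTCH2, a choice made after the values had been seen, the log2 fold change was -0.26 with an adjusted p of 0.097 from edgeR.

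NOTCH4, a receptor known mainly from endothelial cells, had few counts. It had 0, 13 and 25 counts in shCTRL libraries and 47, 41 and 42 counts in shCCN3 libraries, or 0.193 ± 0.187 and 0.692 ± 0.0416 CPM (SD, n = 3 each). The groups did not overlap, yet the log2 fold change of 1.84 (95% interval 0.25 to 3.42) had an adjusted p of 0.074 from edgeR's quasi-likelihood test. DESeq2 gave it an adjusted p of 0.0367 and limma-voom one of 0.0435, with limma-voom moving the log2 fold change to 3.09. Without library 1 or library 3 of shCTRL, edgeR gave a log2 fold change of 1.24 or 2.76 with an adjusted p of 0.0344 or 0.0329. NOTCH4 shares 98 exonic bases with GPSM3 on the minus strand of chromosome 6 (32194843 to 32224067 for NOTCH4), and GPSM3 had 15, 13 and 21 counts in shCTRL and 29, 25 and 24 counts in shCCN3 libraries. The 24 tested genes nearest to NOTCH4 had a median log2 fold change of 0.39. The part of GPSM3 reads in these values was not tested.

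**Figure D2:**
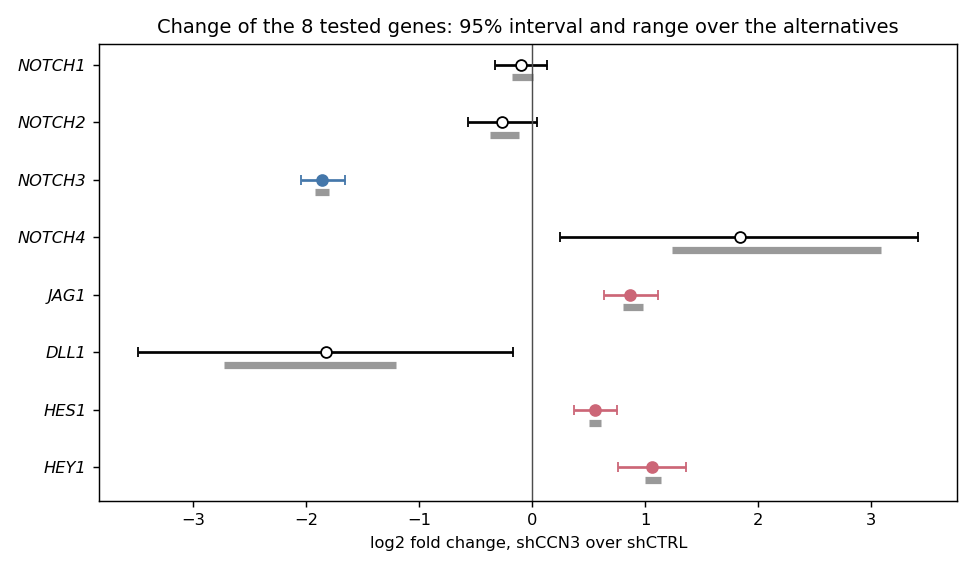
Log2 fold change of shCCN3 over shCTRL for the 8 genes tested, as points with the 95% interval of edgeR's fit (blue, lower; red, higher; open, adjusted p of 0.05 or more), above grey bars that span the values under the alternatives. The bars of NOTCH3 (-1.92 to -1.80), JAG1 (0.80 to 0.98), HES1 (0.50 to 0.61) and HEY1 (1.00 to 1.14) are short, and those of NOTCH4 (1.24 to 3.09) and DLL1 (-2.73 to -1.21) are long.

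Of the 4 ligands, JAG1 was the most abundant. JAG1 encodes Jagged1, a ligand for several Notch receptors. It was at 68.6, 66.3 and 57.1 CPM in shCTRL libraries and at 124, 100.2 and 127 CPM in shCCN3 libraries. All shCCN3 libraries were higher than all shCTRL libraries, with library 2 of shCCN3 the lowest of its group. The mean rose from 64.0 ± 6.07 to 117 ± 14.8 CPM (SD, n = 3 each), 1.83-fold by the fit. The log2 fold change was 0.87 (standard error 0.104, 95% interval 0.64 to 1.11) with an adjusted p of 0.000215 from edgeR's quasi-likelihood test. Without library 2 of shCCN3 it was 0.98. JAG1 lies on chromosome 20 (10637684 to 10673999, minus strand), where 23 of the 24 nearest tested genes had a log2 fold change below 0 and their median was -0.51. All 24 were below JAG1, whose log2 fold change exceeded their median by 1.38. An antisense gene shares 79 exonic bases with JAG1, and use of the strand in counting is not stated.

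DLL1, a Delta-like ligand, had 16, 34 and 31 counts in shCTRL libraries and 0, 11 and 10 counts in shCCN3 libraries. This amounts to 0.412 ± 0.160 and 0.118 ± 0.104 CPM (SD, n = 3 each), and the ranges did not overlap. The log2 fold change of -1.83 (95% interval -3.49 to -0.17) had an adjusted p of 0.0867 from edgeR's quasi-likelihood test. It was 0.0434 in edgeR's exact test, 0.0418 with a replicate block and 0.0429 without library 2 of shCCN3, which moved the log2 fold change to -2.40. Without library 1 of shCCN3, the one at 0, the log2 fold change was -1.21. DLL1 (170282206 to 170306565, minus strand) and NOTCH4 both lie on chromosome 6, with a median of 0.35 over the log2 fold changes of its tested genes. The 24 genes nearest to DLL1 had a median of 0.39, and none of them was as low as DLL1.

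JAG2 and DLL4 did not pass the filter on low counts. JAG2 is a further Jagged ligand on chromosome 14 (105140981 to 105168824, minus strand). It had 7, 0 and 0 counts in shCTRL and 15, 0 and 8 counts in shCCN3 libraries. JAG2 shares 469 exonic bases with the gene AL512356.1 on the same strand, and the part of its reads in these counts was not tested. DLL4, the ligand best known from sprouting vessels, on chromosome 15 (40929333 to 40939073, plus strand), had 8 counts in library 1 of shCTRL and 0 counts in the other 5 libraries. No difference was detectable at this depth for either gene.

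Levels of different genes were compared as CPM per kilobase of merged exons. In shCTRL cells the order was NOTCH2 (9.14 ± 1.14), JAG1 (6.89 ± 0.653), HES1 (6.50 ± 0.221), NOTCH3 (3.05 ± 0.249), NOTCH1 (2.26 ± 0.0575) and HEY1 (0.578 ± 0.0565; SD, n = 3). JAG1 and HES1 did not differ beyond their spread. DLL1 followed at 0.128, and NOTCH4, DLL4 and JAG2 were below 0.02. In shCCN3 cells JAG1 (12.6 ± 1.59) came first, then HES1 (9.59 ± 0.777), NOTCH2 (7.61 ± 1.39), NOTCH1 (2.11 ± 0.292), HEY1 (1.20 ± 0.0118) and NOTCH3 (0.842 ± 0.0406). The libraries of neighbours in this order did not overlap. Per kilobase of coding bases the order of these 6 genes in shCTRL cells was the same, with overlap between NOTCH2 and JAG1. In shCCN3 cells HEY1 (4.21 ± 0.0412) then came before NOTCH1 (2.86 ± 0.396), so that the place of these genes depends on the length used.

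NOTCH3 and NOTCH1 thus changed places among the receptors. NOTCH3 made up 21.1% ± 0.729 of the summed receptor level per kilobase in shCTRL cells and 8.03% ± 0.995 in shCCN3 cells, while NOTCH1 made up 15.7% ± 1.29 and 19.9% ± 0.506 (SD, n = 3 each). NOTCH2 accounted for 63.1% ± 1.89 and 71.4% ± 1.66. The summed level of the receptors was 14.5 ± 1.40 CPM per kilobase in shCTRL and 10.6 ± 1.71 in shCCN3 cells. The summed level of the 4 ligands went from 7.03 ± 0.646 to 12.7 ± 1.59 CPM per kilobase, of which JAG1 was 98.0% and 99.6%. This sum leaves out the further ligands DNER and DLL3, which are given below. Per kilobase of coding bases the sums were 27.9 ± 2.93 and 21.4 ± 3.58 for the receptors and 17.7 ± 1.66 and 32.2 ± 4.05 for the ligands, in the same direction on a higher scale.

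**Figure D3:**
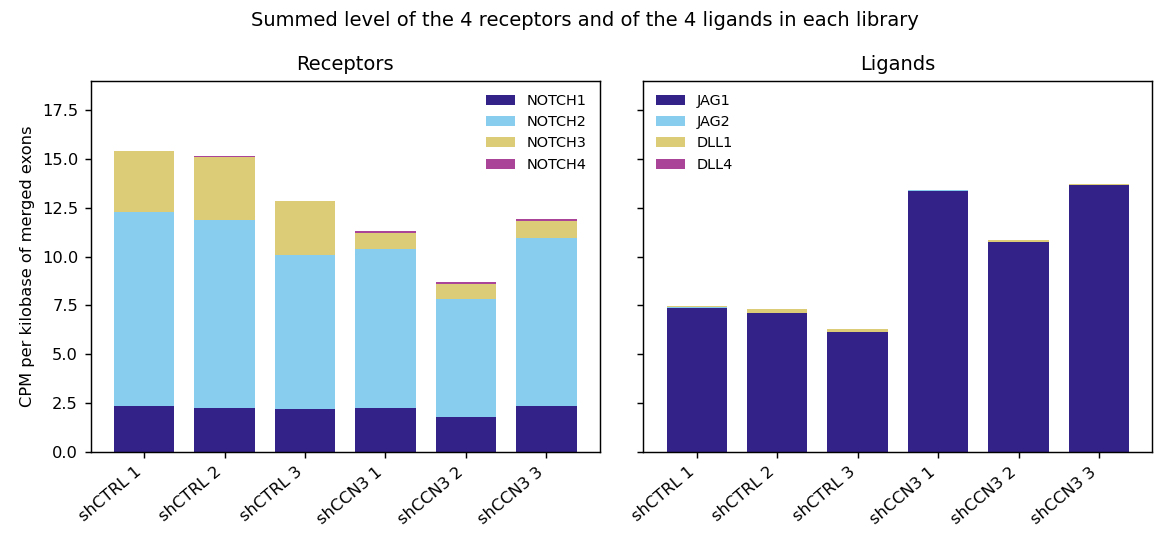
Stacked level of the 4 receptors (left) and the 4 ligands (right) in each of the 6 libraries, in CPM per kilobase of merged exons on a linear axis from 0. JAG1 fills nearly the whole ligand bar (98.0% in shCTRL, 99.6% in shCCN3), and the NOTCH3 segment shrinks from 21.1% to 8.03% of the receptor bar.

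HES1, a repressor that holds cells in a progenitor state in many tissues and represses its own gene, was at 13.7, 13.7 and 12.9 CPM in shCTRL libraries. In shCCN3 libraries it was at 19.6, 21.5 and 18.3 CPM, with no overlap between the groups. The log2 fold change was 0.56 (standard error 0.084, 95% interval 0.37 to 0.75), a 1.47-fold rise, and the adjusted p was 0.000817 from edgeR's quasi-likelihood test. Unlike NOTCH1, NOTCH2 and JAG1, HES1 was highest of its group in library 2 of shCCN3. Its merged exons span 2062 bases, against 9298 to 16807 bases for those 3 genes. NOTCH3, with 9394 bases, was also lowest in this library, while NOTCH4, with 9748 bases and few counts, was highest in it. The part of length in these values was not tested. HES1 lies on chromosome 3 (194136145 to 194138732, plus strand), and its 24 nearest tested genes had a median log2 fold change of -0.15, with 21 of them below HES1.

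HEY1, a repressor known as a target of both Notch and BMP signals, was less abundant. It was at 1.72, 1.81 and 2.07 CPM in shCTRL libraries and at 3.92, 3.91 and 3.85 CPM in shCCN3 libraries. The groups were widely separated beside their spread, with means of 1.87 ± 0.183 and 3.89 ± 0.0381 CPM (SD, n = 3 each). The log2 fold change was 1.06 (standard error 0.133, 95% interval 0.76 to 1.36), or 2.08-fold, with an adjusted p of 0.000297 from edgeR. HEY1 lies on chromosome 8 (79764010 to 79767863, minus strand), and 21 of its 24 nearest tested genes were below it, their median being 0.21.

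Within the wider HES and HEY families, 9 genes were looked up and 6 were tested. HES1, HES4, HEY1 and HEY2 rose, none fell, and HES6 and HES7 did not pass the test, beside 16.2% of all genes tested that rose and 17.3% that fell. HEY2, a close relative of HEY1, was at 1.14, 1.31 and 0.715 CPM in shCTRL libraries and at 5.89, 6.51 and 5.11 CPM in shCCN3 libraries. Its log2 fold change was 2.47 (standard error 0.212), with an adjusted p of 2.91e-05 from edgeR's quasi-likelihood test, and the 24 nearest genes on chromosome 6 had a median of 0.37. HES4, a relative of HES1, went from 9.95 ± 0.368 to 19.3 ± 2.40 CPM (SD, n = 3 each), and its log2 fold change was 0.96 (edgeR, adjusted p = 0.000102). HES6, which is known to oppose HES1, had a log2 fold change of 0.05 (95% interval -0.17 to 0.28). HES7, the segmentation clock repressor, was below 1 CPM with a log2 fold change of -0.21. HES5 and HEYL were at 0 counts in every library. NRARP, a feedback inhibitor and further Notch target, was below 1 CPM with a log2 fold change of 0.23 (95% interval -0.62 to 1.07).

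RBPJ, the DNA-binding partner of all 4 receptors, fell in shCCN3 cells. It was at 109.9, 100.4 and 101.2 CPM in shCTRL libraries and at 52.4, 54.2 and 61.4 CPM in shCCN3 libraries. The groups lay far apart, and the log2 fold change was -0.89 (standard error 0.076), with an adjusted p of 2.79e-05 from edgeR's quasi-likelihood test. The 24 nearest genes had a median of -0.10, and 1 of them was lower. The other 7 genes of the nuclear complex did not pass the test, among them the coactivator genes MAML1, MAML2 and MAML3 with log2 fold changes of 0.19, -0.18 and -0.56.

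In the list of 46 other pathway genes as a whole, 40 were tested, 5 rose and 5 fell with an adjusted p under 0.05 from edgeR. This is 25% of those tested, beside 33.4% of all genes, and the median log2 fold change was 0.01 in both. Without library 2 of shCCN3, 17 of 40 pathway genes were called, beside 7229 of all 17837 genes tested. Without library 2 of shCTRL, 6 of 41 were called, beside 4181 of 17854, so the count over all genes moved in the same direction. Among the ligand ubiquitin ligases that start ligand endocytosis, MIB1 rose from 37.8 ± 4.71 to 56.6 ± 11.9 CPM (SD, n = 3 each), with a log2 fold change of 0.58 (edgeR, adjusted p = 0.0136), and NEURL1B had a log2 fold change of 0.19. The other 2 genes of this role, NEURL1 and MIB2, had log2 fold changes of -1.39 and -0.20 with no overlap of the groups and did not pass (edgeR, adjusted p = 0.0741 and 0.0858). FURIN, the protease that first cuts the receptors, had one of 0.20. MIB1, NEURL1B and FURIN with HES4 and HEY2 make up the 5 that rose.

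Besides RBPJ, the genes that fell were DTX3, DTX2, FBXW7 and PSEN2. DTX3 and DTX2, which encode Deltex proteins that act on Notch trafficking, had log2 fold changes of -0.69 and -0.64 with adjusted p-values of 0.000126 and 0.000306 from edgeR's quasi-likelihood test. DTX2 lies on chromosome 7, where the 24 nearest genes had a median of -0.55 and 8 of them were lower. Over all 703 tested genes of chromosome 7 the median log2 fold change was -0.44. The neighbours of DTX3 had a median of 0.10, and none was lower than DTX3. FBXW7, which directs the cleaved receptor to degradation, had a log2 fold change of -0.40, and the gamma-secretase gene PSEN2 had one of -0.26. FBXW7, PSEN2, FURIN, NEURL1B, NEURL1 and MIB2 are named to complete the counts, since their changes were below the size set for naming or did not pass the test.

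Of the 5 genes for glycosylation of the receptors none passed the test, and of the 9 genes for receptor processing 2 passed it, beside 33.4% of all genes. Those that did not pass included ADAM10 and ADAM17 with log2 fold changes of 0.12 and 0.02. DNER, a non-classical ligand, was at 34.7 ± 1.39 CPM per kilobase in shCTRL and 35.7 ± 1.65 in shCCN3 cells (SD, n = 3 each), above each of the 10 Notch genes on this scale. Its log2 fold change was 0.04 (95% interval -0.10 to 0.18). DLL3, which acts inside the cell that makes it, had a log2 fold change of -0.58 with an adjusted p of 0.0622 from edgeR.

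**Figure D4:**
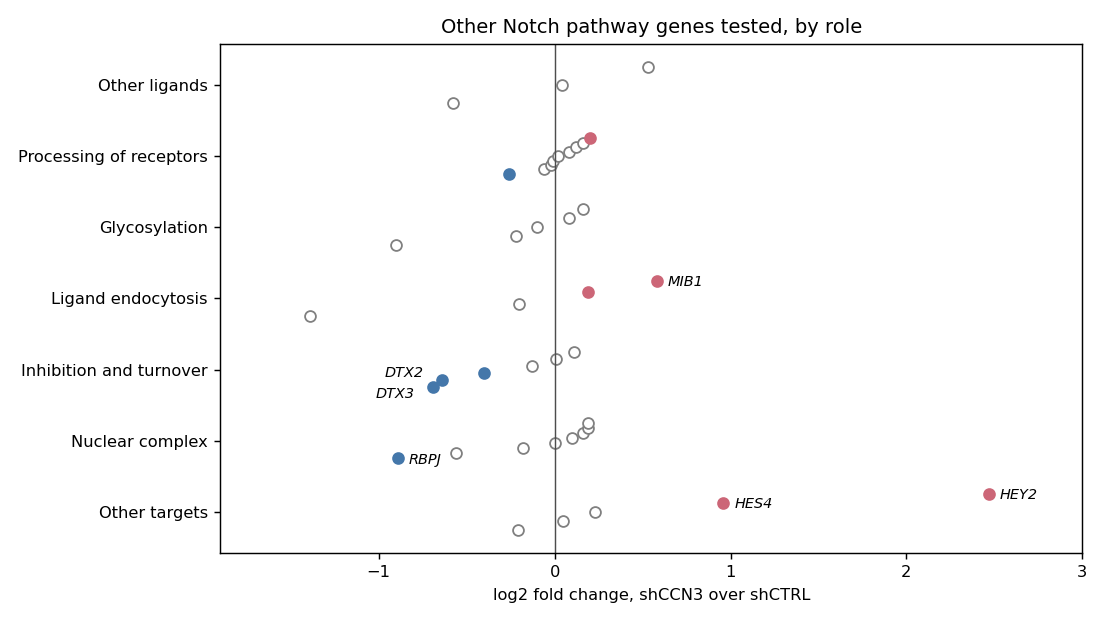
Log2 fold change of shCCN3 over shCTRL for the 40 other pathway genes tested, grouped by role, with blue points for genes that fell, red points for genes that rose and open points for those that did not pass an adjusted p of 0.05. RBPJ (-0.89) is the lowest filled point and HEY2 (2.47) the highest.

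The genes whose log2 CPM followed NOTCH3 most closely over the 6 libraries included PPCS and SEMA7A, with Pearson's r of 0.9995 and 0.9994, out of 9763 genes with a mean of at least 10 CPM. For HEY1 they were TMEM231, TAGLN and PPP1R13L, with r of 0.999, 0.9983 and 0.9982. All these genes share the same libraries and the same division into both groups, and 882 genes had r above 0.95 with NOTCH3 and 711 with HEY1, so these values are a description of the group difference.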

How the data were processed

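The authors prepared TruSeq Stranded mRNA libraries, sequenced them on a NovaSeq instrument, and deposited raw read counts per gene, 1 column per library. Per the labels, the submitters' processing notes name bcl2fastq, Trimmomatic, HISAT2 2.1.0, StringTie, DESeq2 and GRCh38, without roles. How reads were counted and whether strand was used are not given in the sources used here. Low genes alternated between 0 and several counts within a group.

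Counts were tested with edgeR 4.0.16 in R 4.3.3: TMM, edgeR's filter by group, quasi-likelihood test, adjustment over 17419 genes. Scripts were tested on simulated data. Positions and exon lengths came from GENCODE release 29 on GRCh38 (26551 Gene IDs matched, 14932 of the genes tested), promoters from RefSeq. No unused sample columns remained.

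The members and lists were chosen with earlier results of these data known. Named were all 10 members, CCN3, the HES and HEY families, called pathway genes whose log2 fold change was at least 0.5 in size, and the 3 genes most like the called members with the largest fall and rise, of which 1 is not reported here.

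Alternatives were DESeq2 size factors, upper-quartile scaling, no filter, a minimum of 10 counts in all samples, limma-voom (limma 3.58.1), the exact test of edgeR, DESeq2 1.42.0, a replicate block, each library left out, coding length and 10 neighbours.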

Additional observations from a re-analysis of the deposited data

How the results depend on the processing

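The count of Notch genes with an adjusted p under 0.05 was 4 or 5 under each of the 14 alternatives, and NOTCH3, JAG1, HES1, HEY1, RBPJ, HES4, HEY2, MIB1, DTX2 and DTX3 kept their direction and passed the threshold in all of them. When single libraries were left out, the count of other pathway genes called lay between 6 and 17, that of all genes between 4181 and 7229, and the log2 fold change of CCN3 between -1.12 and -1.09. That of NOTCH1 lay between -0.18 and 0.01, and the value of 0.01, without library 2 of shCCN3, was the one change of sign. NOTCH4 passed the threshold in 4 of 13 alternatives and DLL1 in 3 of 13, so both depend on the tool and on single libraries at these counts. With coding length in place of merged exons, NOTCH2 made up 74.1% and 80.6% of the receptor level in shCTRL and shCCN3 cells. On this length JAG1 made up 98.8% of the summed level of the 4 ligands in shCTRL cells. The other scalings moved the median of all genes by at most 0.002 on the log2 scale.

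The samples of both groups share replicate numbers. The departures from the group mean in libraries of equal number correlated at 0.149, -0.0726 and -0.259, and 1 of 6 samples correlated best with its own number. No pairing by number was visible. With 3 libraries per group, whose departures also vary with transcript length, the check cannot exclude a pairing. With the replicate block, 4887 in place of 5825 genes, 5 in place of 4 Notch genes and 9 in place of 10 other pathway genes were called. The added Notch gene was DLL1, with an adjusted p of 0.0418 from edgeR.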

Other observations

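HES2, a further repressor of the HES family, did not pass the filter on low counts. It had 0, 0 and 4 counts in shCTRL libraries and 6, 13 and 16 counts in shCCN3 libraries.

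Among the 24 tested genes nearest to JAG1, the long noncoding RNA gene LINC00654 was the lowest, and it was chosen here after its values were seen. It had 12, 13 and 17 counts in shCTRL libraries and 0 counts in each shCCN3 library, which allows up to 3 counts per library.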
